A study of Danio rerio with 6 samples.

Results

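Genes of the absorptive gut lining were followed in whole zebrafish larvae with and without a microbiota: the acidic chitinases of the chia. family, the intestinal alkaline phosphatase alpi.1, villin (vil1) and the membrane protein gene tm4sf4. They were taken by gene symbol, as all array probesets whose platform symbol starts with chia. or is alpi.1, tm4sf4, tm4sf5, vil1 or cdx1b. This gave 9 probesets of 15502 tested, for 8 genes of 8793 with a symbol: chia.1, chia.2, chia.3, chia.4, chia.6, alpi.1 and vil1 with 1 probeset each and tm4sf4 with 2. chia.5, tm4sf5 and cdx1b had no probeset under their symbol and are not analysed here.

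Enterocytes are the absorptive cells of the intestinal epithelium. Their apical surface, the brush border, is a field of actin-filled microvilli that carries digestive hydrolases and transporters and faces the gut contents, microbes included. Chitinases of the acidic mammalian chitinase type are secreted glycosyl hydrolases that cut chitin, the polymer of crustacean shells, insect cuticle and fungal walls. Intestinal alkaline phosphatase is anchored in the brush border and can remove phosphate from bacterial lipopolysaccharide, which lowers the toxicity of that molecule. Villin bundles the actin of microvilli. tm4sf4 encodes a cell surface protein with 4 membrane passes of the L6 family, which in mammals is found in intestine and liver. In the order of protein-coding genes of the RefSeq GRCz12tu assembly, chia.1 and chia.2 are direct neighbours and chia.3 follows beyond ovgp1. chia.4, chia.5 and chia.6 form a second run, and alpi.1 lies beside alpi.2.

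All larvae were of strain C32, reared under gnotobiotic conditions and taken whole at 6 days post-fertilization. The germ-free group stayed without microbes throughout, and the ex-germ-free conventionalized group, called colonized here, was germ-free up to day 3 and then carried microbes from conventional zebrafish until day 6. Each group had 3 biological replicate pools of 28 to 80 larvae, with 1 single-colour Affymetrix array per pool, so that a replicate is a pool of animals. The comparison asks which transcript levels differ between larvae with and without a microbiota. Values are the authors' normalized probeset intensities on a linear scale, with array medians of 86.0 to 93.8. Every log2 change is colonized minus germ-free on log2(intensity + 32), which understates the change of dim probesets, and is given with its 95% interval from limma's fit to all tested probesets. A probeset was called changed at a Benjamini-Hochberg adjusted p under 0.05 over all 15502. In whole larvae, fewer cells of a type and less RNA per cell cannot be told apart.

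As facts of the arrays, log2 values correlated with those of the same group's other arrays at 0.977 to 0.990 on average, lowest for germ-free replicate 3. The title of that array ends in a number outside the run of numbers in the other titles, and the titles do not say what it stands for. The actin control probesets, read as 3' over 5' on the log2 scale as a sign of RNA quality, gave 2.35 to 2.64 in germ-free and 2.79 to 3.00 in colonized pools, whereas the GAPDH controls overlapped (0.308 to 0.603 and 0.274 to 0.485). The part of the actin difference in the results below was not tested. Of all probesets, 1.70% were called. Those higher with a microbiota made up 1.28% (199 probesets) and those lower 0.413% (64 probesets). After quantile normalization the split was 191 higher and 120 lower. The pools of the groups did not overlap for 19.6% of all probesets, with colonized above in 12.5% and below in 7.08%.

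Colonized larvae had higher tm4sf4 on both of its probesets and higher chia.6, while the other 4 chitinases, alpi.1 and vil1 were not called. Called were thus 3 of the 9 probesets, all higher, against 1.28% of all probesets; since these genes were picked with earlier results of the same arrays known, this count is a description. The colonized pools lay above the germ-free pools on 5 of the 9 probesets and below them on 1, against 12.5% and 7.08% of all probesets. The 5 include both probesets of tm4sf4. The median log2 change of the 9 probesets was 0.23, against 0.02 for all tested probesets.

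**Figure D1:**
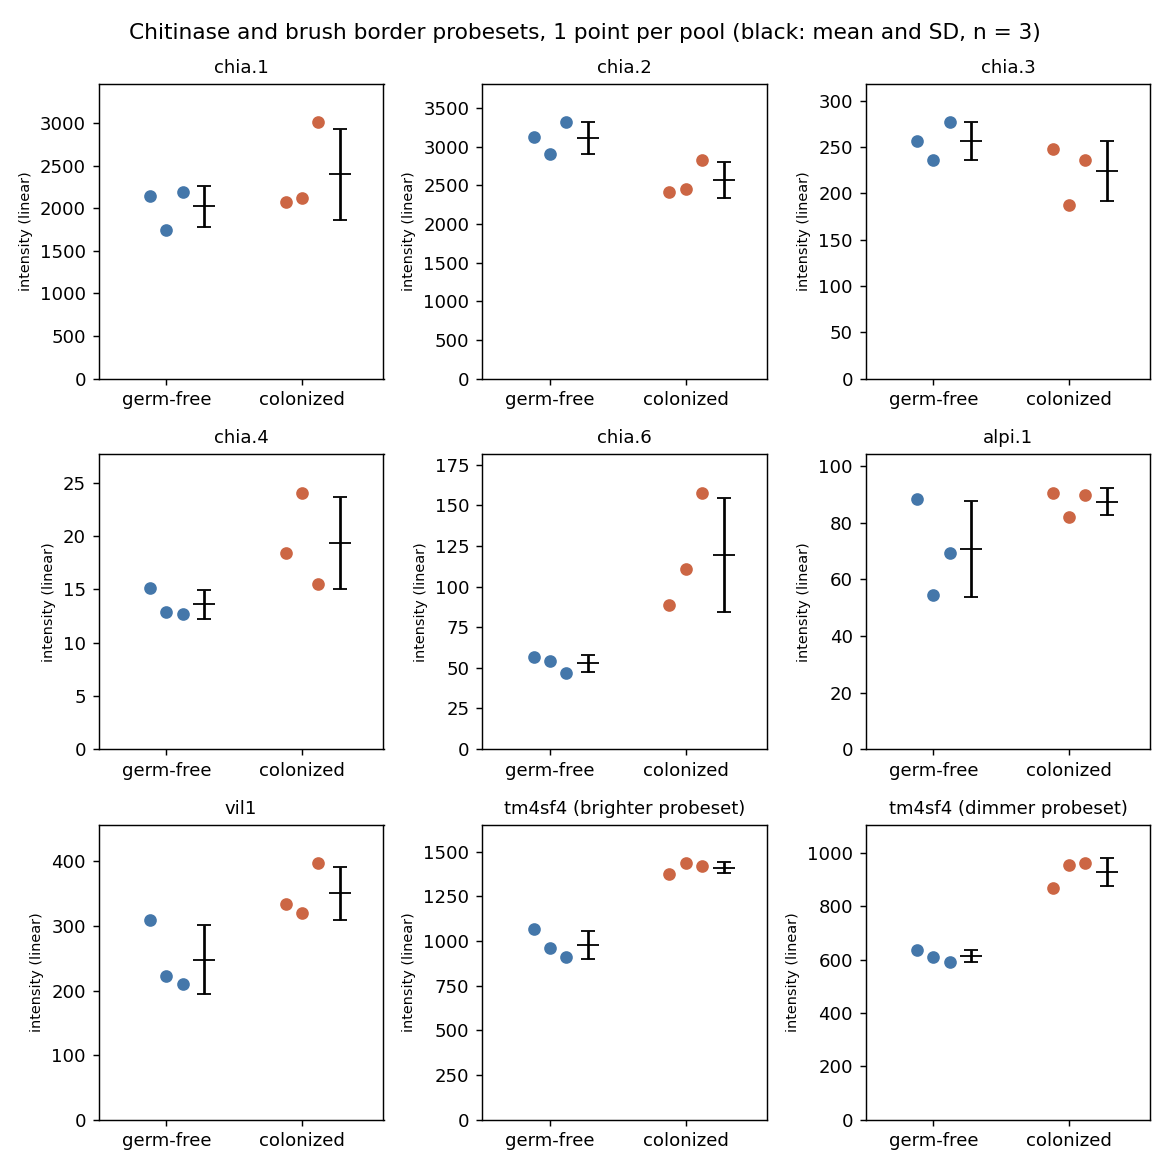
Intensity on a linear axis from 0 in each of the 3 germ-free and 3 colonized pools, with 1 panel per probeset, points for pools and black bars for the mean and SD. Both tm4sf4 probesets and chia.6 have all colonized pools above all germ-free pools, chia.2 has them all below, and chia.1, chia.3 and alpi.1 overlap.

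Among the 5 chitinases, chia.6 was called and the others were not. Its intensity was 56.8, 54.5 and 46.9 in the germ-free pools and 88.9, 111 and 158 in the colonized pools. Each colonized pool lay above every germ-free pool, and the colonized pools spread more among themselves than the germ-free ones. The mean went from 52.7 ± 5.17 to 119 ± 35.1 (SD, n = 3 pools per group), a ratio of 2.26. The log2 change was 0.81 (95% interval 0.48 to 1.14, limma adjusted p = 0.0233). The probeset is dim in germ-free larvae, below the array medians, and the size of the change rests on the added constant: it was 0.51 with 100 added, still called (limma adjusted p = 0.0292). The call rested on several single pools: with germ-free replicate 1, germ-free replicate 2 or colonized replicate 2 taken out, the limma adjusted p was 0.0631, 0.0705 and 0.0966, and the log2 change 0.85, 0.83 and 0.84.

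The neighbours chia.1 and chia.2 were measured at high intensity in every pool and neither was called. chia.2 had 3123, 2900.4 and 3316 in germ-free and 2412, 2450.4 and 2829.6 in colonized pools. All colonized pools lay below all germ-free pools, by a small margin between the highest colonized and the lowest germ-free pool. The means were 3113 ± 208 and 2564 ± 231 (SD, n = 3), a ratio of 0.824, with a log2 difference of -0.28 (95% interval -0.46 to -0.09, limma adjusted p = 0.158). After quantile normalization the difference was -0.38 and was called (limma adjusted p = 0.0113), as it was with array weights (-0.30, limma adjusted p = 0.0460). Its direction was the same in all 13 alternatives, and in the other 11 it was not called. Among those 11, the limma adjusted p was 0.253 without a trend in the variances and 0.0843 to 0.482 on leaving out 1 array.

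chia.1 had 2143, 1747 and 2184 in germ-free and 2067, 2115 and 3009.7 in colonized pools. The ranges overlapped, and colonized replicate 3 stood above the other 5 pools. The means were 2025 ± 241 and 2397 ± 531 (SD, n = 3), with a log2 difference of 0.23 (95% interval -0.09 to 0.54, limma adjusted p = 0.539). Without colonized replicate 3 the difference was 0.053, and after quantile normalization 0.099.

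chia.3, which lies beyond ovgp1 in the same run of genes, had 256, 237 and 277 in germ-free and 249, 187 and 237 in colonized pools. The groups overlapped (means 257 ± 20.2 and 224 ± 32.6, SD, n = 3), and the log2 difference was -0.18 (95% interval -0.44 to 0.08, limma adjusted p = 0.562). chia.4 was dim in every pool, at 15.1, 12.9 and 12.7 in germ-free and 18.4, 24.1 and 15.5 in colonized larvae, all below the 32 that was added before the logarithm. The colonized pools lay above the germ-free ones, the nearest pair by a narrow gap. On the log scale the difference was 0.17 (95% interval -0.02 to 0.36, limma adjusted p = 0.446).

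To set the chitinases beside each other, the value of one on log2(intensity + 32) was subtracted from that of another within each array, for all 10 pairs. The added constant flattens the dim chia.4 and chia.6 in these differences. The log2 difference chia.2 minus chia.6 was 5.15, 5.08 and 5.41 in germ-free and 4.34, 4.12 and 3.91 in colonized pools. It was lower in colonized larvae by -1.09 on average, the largest shift of the 10 pairs. For chia.1 minus chia.2 the values were -0.54, -0.72 and -0.60 in germ-free and -0.22, -0.21 and 0.09 in colonized pools, a shift of 0.50. The groups did not overlap in these pairs, as in 7 of the 10. Each shift is the difference between the log2 changes of the paired genes. The 10 pairs reuse the same probesets, so they are not separate results, and the share for pairs of other probesets was not computed. With 3 pools against 3, an exact two-sided permutation test cannot go below 0.1, which those 7 reached, and after adjustment over 11 pairs (these 10 and the tm4sf4 probesets) their p was 0.157, so no pair was called. For chia.2 minus chia.3 the shift was -0.10 (exact permutation p = 0.7). Whether probes of one chitinase also bind transcripts of another was not tested.

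**Figure D2:**
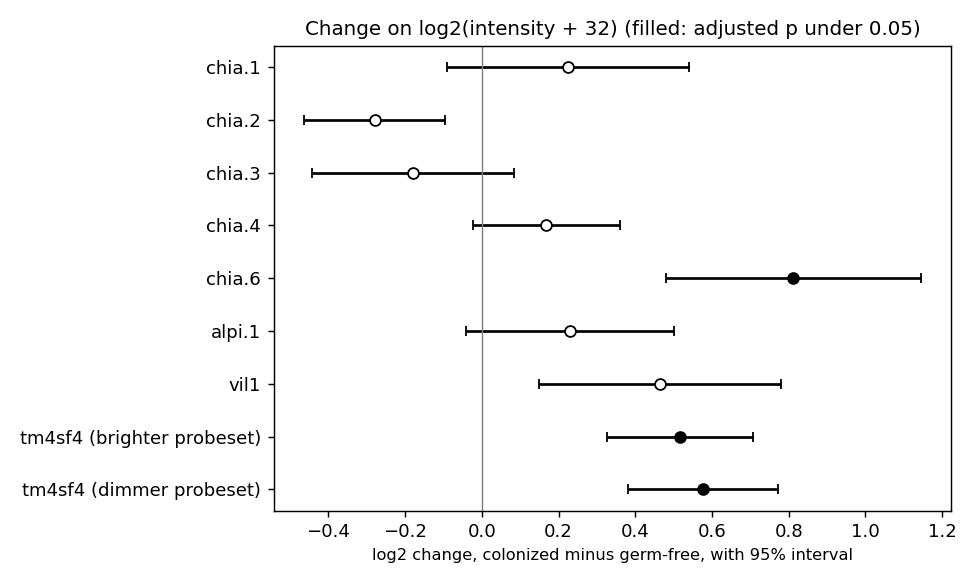
Log2 change on log2(intensity + 32), colonized minus germ-free, with bars for the 95% interval from the fit to 6 arrays and filled points for an adjusted p under 0.05. Only chia.6 (0.81) and the tm4sf4 probesets (0.52 and 0.58) are filled; chia.2 (-0.28) and chia.3 (-0.18) lie left of 0.

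tm4sf4 rose on both probesets by about the same amount. The brighter probeset read 1065, 958 and 909 in germ-free and 1374, 1435 and 1418 in colonized pools. The dimmer one read 637, 609 and 591 in germ-free and 869.8, 956 and 962 in colonized pools. On both, every colonized pool was above every germ-free pool, by a gap wider than the whole range of either group. The means went from 977 ± 79.7 to 1409 ± 31.5 (SD, n = 3), a ratio of 1.44, on the brighter probeset and from 612 ± 23.1 to 929 ± 51.4, a ratio of 1.52, on the dimmer one. The log2 changes were 0.52 (95% interval 0.33 to 0.71, limma adjusted p = 0.0133) and 0.58 (0.38 to 0.77, limma adjusted p = 0.00843). The log2 difference between the probesets, brighter minus dimmer, was 0.59 to 0.71 in germ-free and 0.55 to 0.64 in colonized pools, a shift of -0.06 (exact permutation p = 0.3). Both probesets share the same RNA and are no independent replicates. Without colonized replicate 2 neither was called (log2 changes 0.50 and 0.56, limma adjusted p = 0.103 and 0.0796), so that limma called 0 of the 9 probesets on the remaining 5 arrays (5 at an unadjusted p under 0.05); 114 of all tested probesets were called there. Without colonized replicate 1 the brighter one was not called (0.53, limma adjusted p = 0.0606).

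Another gene of the L6 family, tm4sf21a, rose as well. It had 174, 169 and 151 in germ-free and 351, 379 and 459.8 in colonized pools, with means of 165 ± 11.8 and 397 ± 56.3 (SD, n = 3). Its log2 change was 1.12 (limma adjusted p = 0.000729), and it was called in all 13 alternatives, with changes from 0.90 to 1.19. tm4sf4 and tm4sf21a are the L6 genes of a list of 8 that had a probeset. Both were called higher, as were 1.28% of all probesets.

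Neither of the brush border genes villin and alpi.1 was called. vil1 had 309, 223 and 211 in germ-free and 335, 320.1 and 397 in colonized pools. The colonized pools lay above the germ-free pools, with germ-free replicate 1 close to the lowest of them. The means were 248 ± 53.4 and 351 ± 41.1 (SD, n = 3), a ratio of 1.42. The log2 difference of 0.46 (95% interval 0.15 to 0.78) was close to that of tm4sf4, but the germ-free pools spread more, and the limma adjusted p was 0.173. It was 0.29 with array weights and 0.37 to 0.62 on leaving out 1 array (limma adjusted p = 0.0631 to 0.401).

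alpi.1 had 88.5, 54.5 and 69.3 in germ-free and 90.6, 81.8 and 89.9 in colonized pools. Germ-free replicate 1 lay within the colonized range, so the groups overlapped. The means were 70.8 ± 17.0 and 87.4 ± 4.89 (SD, n = 3), with a log2 difference of 0.23 (95% interval -0.04 to 0.50, limma adjusted p = 0.460). The interval takes in a difference of 0 as well as one near that of vil1. Its neighbour alpi.2, named after its values were seen, had 139, 131 and 151 in germ-free and 163, 168 and 215 in colonized pools. These did not overlap, and the log2 difference of 0.31 was not called (limma adjusted p = 0.285).

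Genes of the same epithelium were taken from lists written by function, which include the genes above. Of 7 measured genes of chitin turnover 1 rose, chia.6, and 6 were not called, where 1.28% of all probesets were called higher. The median log2 change was -0.03. Those outside the chia. family were chid1, a chitinase-domain gene, at 128 and 124, and the chitobiase gene ctbs, dim at 27.2 and 21.0 in germ-free and colonized means. Of 7 genes listed with the brush border enzymes, which include the transporter subunit slc3a2a, 0 were called by limma (adjusted p under 0.05), and 1 had an unadjusted p under 0.05, alpi.2, where 13.2% of all probesets did. The log2 differences ran from 0.0011 to 0.31, with a median of 0.05, or of 0.12 over the 6 enzymes without slc3a2a. Sucrase-isomaltase, si, which splits dietary disaccharides, had means of 247 and 246, and the meprin subunit mep1a.1, a membrane protease, 260 and 261. slc3a2a had 265 and 276.

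Of 12 measured structural genes of the brush border and gut epithelium, vil1 among them, 1 rose, 0 fell and 11 were not called. Called higher were 1.28% of all probesets. The median log2 change of the 12 was 0.20. A log2 difference above 0 was found for 9 of the 12, against 55.9% of all genes. In 6 of the 12 the colonized pools lay above the germ-free pools, against 12.5% of all probesets and 1218 of the 8793 genes. The keratin gene krt18a.1, which encodes an intermediate filament protein of simple epithelia, had 430.2, 374 and 374 in germ-free and 605, 564 and 664 in colonized pools. Its log2 change was 0.60 (limma adjusted p = 0.0161), though the call did not outlast the removal of germ-free replicate 2 or of any single colonized pool (limma adjusted p = 0.0529 to 0.0836). Its partner krt8 went from a mean of 2523 ± 18.5 to 3090.3 ± 115 (SD, n = 3) and was just outside the threshold (log2 difference 0.29, limma adjusted p = 0.0532). The claudin gene cldn15la, a tight junction gene of the gut, had 378 and 521 (0.44, limma adjusted p = 0.143), and the epithelial adhesion gene epcam 1724 and 1679.8 (-0.04, limma adjusted p = 0.873). Keratins and epcam are shared with other epithelia of the larva.

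Of 12 genes listed as brush border transporters 0 were called by limma at an adjusted p under 0.05. An unadjusted p under 0.05 was found for 6, against 13.2% of all probesets. In 4 the colonized pools were above and in 2 below the germ-free pools. These shares were 12.5% and 7.08% of all probesets, and 1218 and 636 of the 8793 genes. The median log2 difference of the 12 transporters was 0.09. Where these transporters lie in the cell, slc7a8a included, was not tested. The amino acid transporter slc7a8a had 399, 326 and 338 in germ-free and 584, 555 and 463 in colonized pools, a log2 difference of 0.55 that lay at the threshold (limma adjusted p = 0.0501). The aquaporin aqp8a.1, a water channel, had means of 489 and 677 (0.45, limma adjusted p = 0.0809). The phosphate transporter slc34a2a had 202 and 204. The pair with colonized pools below, named after their values were seen, were its paralog slc34a2b at 203 and 135 (-0.49, limma adjusted p = 0.0930) and the sulfate transporter slc13a1 at 88.3 and 60.3 (-0.37, limma adjusted p = 0.227).

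Of 16 intestinal transcription factors 0 were called by limma and 2 had an unadjusted p under 0.05 (13.2% of all probesets did), and the median log2 difference was -0.05. The means of the Krüppel-like factor gene klf4 were 321 and 306, and those of the forkhead gene foxa1 141 and 144. elf3 had 321, 290 and 105 in germ-free and 167, 272 and 225 in colonized pools. cdx1a and cdx4, the caudal genes measured beside the missing cdx1b, were dim, with means of 18.7 and 10.1 and of 38.7 and 35.2 in germ-free and colonized larvae.

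Of 14 measured genes of enterocyte lipid and retinoid handling, 5 fell, where 0.413% of all probesets were called lower. The other 9 were not called, and the median log2 change was -0.24, with 3 of the 14 above 0. In whole larvae, the cells that these transcripts came from were not resolved. Of the uncalled genes, apobb.1, apoa4b.1 and apoa1a were the brightest. Their germ-free and colonized means were 2849 and 2865 (0.006), 2723 and 2248 (-0.27), and 2128 and 2328 (0.10). The fatty acid binding protein gene fabp2, a classical enterocyte marker, had 2221, 2082 and 2172 in germ-free and 998, 946 and 973 in colonized pools, a log2 change of -1.13 (limma adjusted p = 3.57e-05). The liver-type fabp1b.1 (-0.89), the bile acid binding fabp6 (-0.72), the retinol binding rbp2a (-0.67) and the apolipoprotein apoa4b.2 (-0.40) fell as well (limma adjusted p = 0.00601, 0.00770, 0.0112 and 0.0430). Single pools mattered for 3 of these genes: apoa4b.2 lost its call on removing either of replicates 1 and 2 in each group (limma adjusted p = 0.0938 to 0.211). rbp2a lost it on removing germ-free replicate 1 or either of colonized replicates 1 and 2 (0.0598 to 0.0852), and fabp6 on removing colonized replicate 2 (0.0648). Thus tm4sf4 and chia.6 rose in the same arrays in which fabp2 and fabp6 fell. Over all 70 measured genes of the 7 lists, 4 rose and 5 fell, where 133 rose and 47 fell of all 8793 genes. The 70 include the chia. genes, alpi.1, vil1 and tm4sf4 themselves. Among the 62 others 2 rose and 5 fell, and 53.2% had a difference above 0. A difference above 0 was found for 55.7% of the 70, against 55.9% of all genes. The calls among the 70 were 2 higher and 3 lower without colonized replicate 1, and 1 higher and 2 lower without colonized replicate 2.

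**Figure D3:**
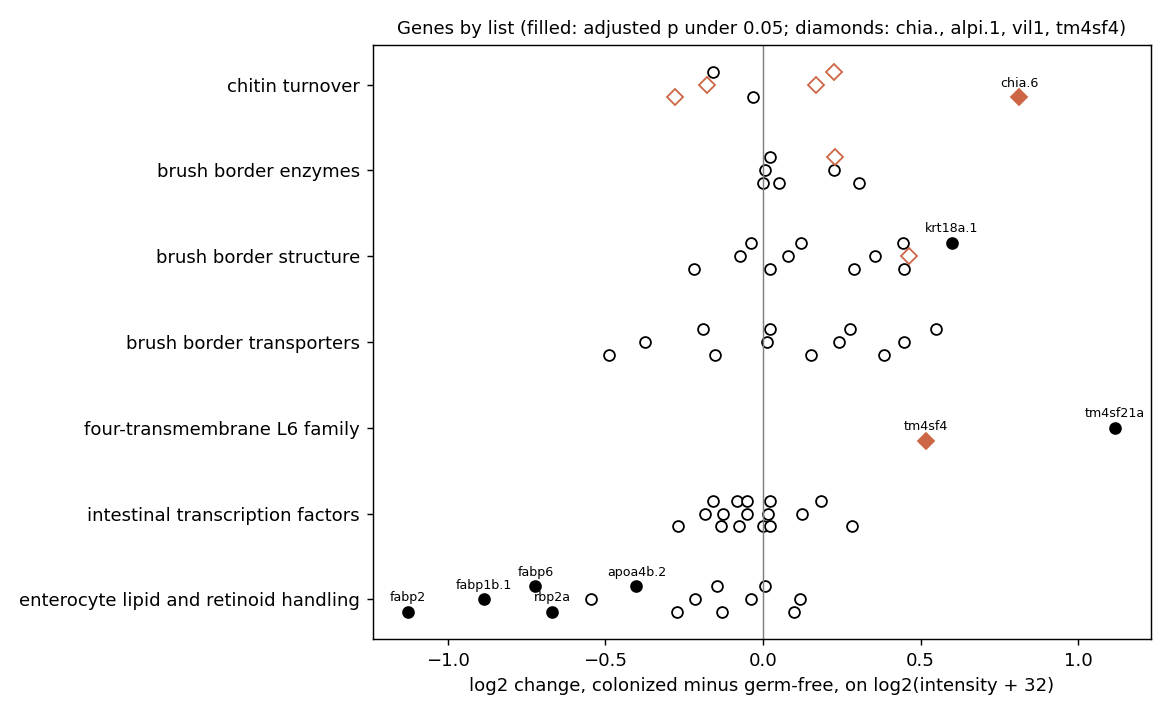
Log2 change on log2(intensity + 32), colonized minus germ-free, of each measured gene in 7 lists, with diamonds for the chia. genes, alpi.1, vil1 and tm4sf4 and filled symbols for an adjusted p under 0.05. Filled symbols right of 0 are chia.6, krt18a.1, tm4sf4 and tm4sf21a, and those left of 0 are 5 genes of lipid and retinoid handling.

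Genes listed as markers of other cells in the larva also differed between the groups. Whether these differences reflect the numbers of such cells was not tested. For comparison, 1.28% of all probesets were called higher and 0.413% lower. Of 11 hepatocyte markers 7 rose and 0 fell, and the summed intensity of the 11 was 15859 to 17053 in germ-free and 21916 to 26729 in colonized pools. Those that rose were tfa, serpina1l, fgg, cp, fga, fgb and hpxa. The brightest uncalled hepatocyte markers were apoa2, rbp4 and fabp10a. Their log2 differences were 0.17, 0.0002 and 0.22 (limma adjusted p = 0.453, 0.9999 and 0.467). Of 9 neutrophil and macrophage markers 7 rose (cd63, mmp9, mmp13a, lyz, lcp1, coro1a and ncf1) and 0 fell (sums of 1627 to 1764 and 3076 to 3625). The other 2, mpx and csf1ra, had log2 differences of 0.38 and -0.13 (limma adjusted p = 0.130 and 0.646). Of 7 genes listed as goblet and enteroendocrine markers 2 rose, muc5.1 and gcga, and 0 fell (sums of 1122 to 1198 and 1587 to 1726). Whether their transcripts came from the gut or from other organs was not resolved. All 7 had a log2 difference above 0, against 55.9% of all genes. In 6 of the 7 the colonized pools lay above the germ-free pools, against 12.5% of all probesets. In all 3 lists 0 markers were at an intensity of 0. Of 11 exocrine pancreas markers 1 fell, cpa1, and 0 rose (sums of 47090.1 to 50564 and 39256 to 46262). A log2 difference above 0 was found for 0 of the 11, and the median was -0.24. In 6 of the 11 the colonized pools lay below the germ-free pools, against 7.08% of all probesets. The part of these cells in the values of tm4sf4, chia.6 and the other genes above was not tested.

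The genes with the most similar profile over the 6 arrays were taken from 4734 others with a mean intensity of at least 100, by Pearson's r of log2 values. These correlations describe 6 arrays that share the group difference, and among so many genes high values arise easily. For tm4sf4 the closest were sptlc1, a serine palmitoyltransferase subunit (r = 0.997), wu:fb63a08 (r = 0.997) and scel, which encodes sciellin, a protein of stratified epithelia in mammals (r = 0.996), and 237 genes passed an r of 0.9. For chia.6 they were the keratin gene krt18b (r = 0.997), hao1, a peroxisomal oxidase of liver in mammals (r = 0.996), and the lysosomal protease lgmn (r = 0.994). krt18b had means of 331 and 480 in germ-free and colonized larvae and was just outside the threshold (log2 difference 0.49, limma adjusted p = 0.0568).

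For vil1 the closest were mxi1, psmg2 and actn2b (r = 0.993 to 0.997), and for alpi.1 aclya, tigarb and atpaf1 (r = 0.984 each). chia.1 was nearest to shmt2 (r = 0.992), the liver fatty acid binding protein gene fabp10a (r = 0.987) and lin7c (r = 0.986). fabp10a had means of 2424 and 2860.4 in germ-free and colonized larvae. chia.2 was nearest to lrrc4.1, the phototransduction gene gngt2b and cnrip1a (r = 0.992 to 0.993), chia.3 to fip1l1b, grin1a and lmx1a (r = 0.978 to 0.986), and chia.4 to tsc22d2, cdc5l and adcyap1b (r = 0.980 to 0.992). No chitinase shared a nearest gene with another among the few named for each. Such short lists from so many candidate genes would seldom share a name, so this does not tell whether the chitinase profiles differ.

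**Figure D4:**
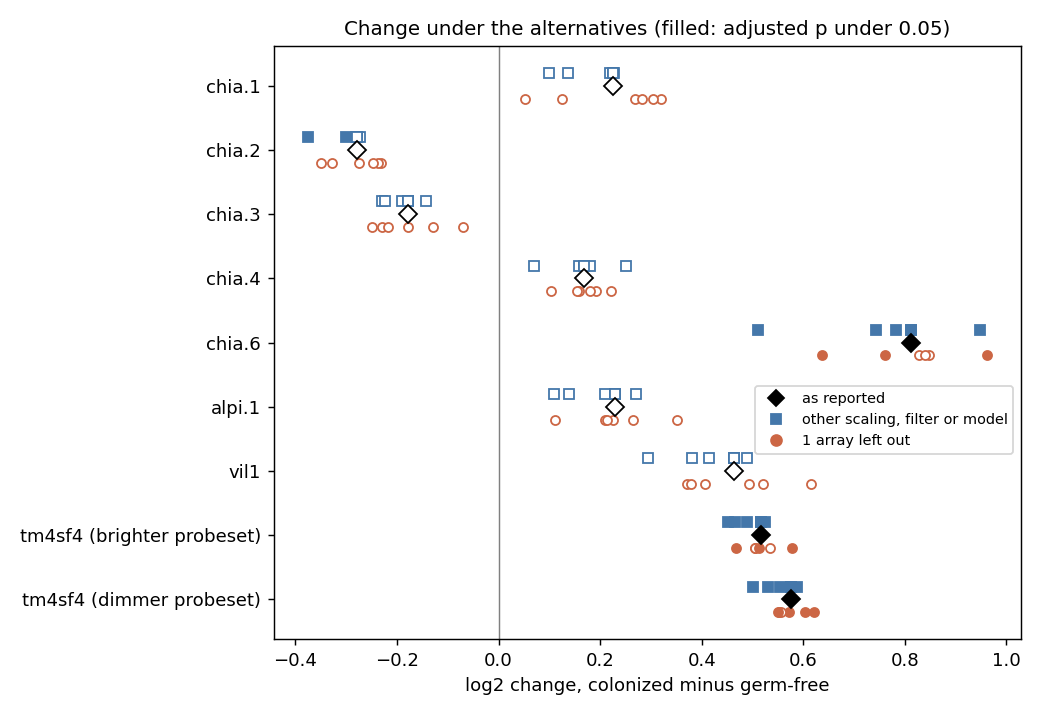
Log2 change, colonized minus germ-free, of each probeset as reported (black), under another scaling, filter or model (blue squares) and with 1 array left out (orange circles), filled where the adjusted p is under 0.05. No probeset crosses 0, tm4sf4 stays between 0.45 and 0.62, and chia.2 is filled under 2 alternatives, quantile normalization (-0.38) and array weights (-0.30).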

How the data were processed

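Transcript levels were measured on 6 arrays, 1 per pool. The deposited intensities are linear values that the authors scaled by the invariant set method and modelled as PM-MM in dChip, per the design text. Invariant set scaling removes a shift shared by most genes. Of 15617 probesets, 115 controls were left out. Symbols came from the platform annotation, updated through Entrez identifiers with a RefSeq GRCz12tu table used for names and gene order only (10711 of 10795 probesets with 1 symbol matched); 135 probesets with several symbols and 4572 with none named no gene. The group effect was tested, two-sided, on log2(intensity + 32) with limma 3.58.1 (R 4.3.3), with no covariate and with variances moderated along an intensity trend, and adjusted p-values throughout are from this fit unless an alternative is named. In lists, a gene is represented by its brightest probeset (mean of log2 values). Names matched through a synonym were anpepb.1, ctrb.1, mfap4.1 and krt1-19e, of which only ctrb.1 and krt1-19e had a probeset with 1 symbol.

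Named are all 9 probesets, called list genes, up to 3 of the brightest uncalled genes per list, and 3 nearest genes by Pearson's r. Others (alpi.2, chid1, ctbs, cdx1a, cdx4, slc34a2b, slc13a1) were named after their values were seen. The genes and lists were chosen with earlier results of these data known. No pair of arrays shared an identical value. The number of pools limits the precision. Of further cell markers, limma called 0 of 7 muscle, 7 neuron, 2 kidney tubule and 4 epidermis genes (2, 1, 1 and 1 at an unadjusted p under 0.05), while 2 of 3 erythrocyte genes rose and 2 of 4 lens and photoreceptor genes fell. Of all probesets, 13.2% had an unadjusted p under 0.05, 1.28% were called higher and 0.413% lower.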

Additional observations from a re-analysis of the deposited data

How the results depend on the processing

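Every probeset kept its direction under all alternatives that gave it a value: pseudocounts of 16 and 100, quantile normalization, a filter at a mean intensity of 100, variances without a trend, array weights, the replicate block and leaving out each array. The filter removed alpi.1, chia.4 and chia.6, which then have no value. On leaving out 1 array, called probesets of all tested ranged from 114 to 410, of the 9 from 0 to 3, and list genes from 3 to 10. The 410 were called without germ-free replicate 3, and the 114 without colonized replicate 2. The log2 changes ranged from 0.64 to 0.96 for chia.6, from 0.47 to 0.58 and from 0.55 to 0.62 for the brighter and dimmer tm4sf4 probesets, from -0.35 to -0.23 for chia.2, from 0.053 to 0.32 for chia.1, from -0.25 to -0.07 for chia.3, from 0.10 to 0.22 for chia.4, from 0.11 to 0.35 for alpi.1 and from 0.37 to 0.62 for vil1. These fits use fewer samples. Array weights called 569 probesets and 14 list genes, and chia.2 was called with them (-0.30) and after quantile normalization (-0.38); the cause was not tested. Same-numbered pools deviated with correlations of -0.084, 0.097 and 0.069. Pools of different number gave -0.164 to 0.095, so the numbers were not taken as pairs. With the replicate block, 274 probesets and 3 of the 9 were called, with limma adjusted p of 0.0290 for chia.6 and 0.0310 and 0.0239 for tm4sf4; of the list genes 9 were called, apoa4b.2 not among them (limma adjusted p = 0.0626, and 0.102 without a trend in the variances).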
